A study of Mus musculus with 10 samples.

Results

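Regions of the mouse genome at which a c-JUN peak was called after hexokinase 1 (HK1) knockdown and not in the cells that kept HK1 were examined in primary murine cardiac fibroblasts. A region belonged to this set when the peak call was absent in the TGF library, present in the siHK1 library, and backed by at least 15 siHK1 reads. There were 2548 such siHK1-only regions among 72990 JUN regions. They were compared with 31950 shared regions, which were called in both libraries under the same read minimum. Of the 34498 regions called in siHK1 with at least 15 reads, 7.39% were not called in TGF. The set was selected on the JUN peak calls and siHK1 reads themselves, so its JUN values below are a description.

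The data come from CUT&Tag, in which an antibody guides a transposase to chromatin and the cut DNA is sequenced. The TGF libraries came from fibroblasts given TGF-β, a cytokine that turns fibroblasts into matrix-producing myofibroblasts. The siHK1 libraries came from fibroblasts transfected with an siRNA against Hk1 and then given TGF-β, so both conditions share the cytokine. The labels do not say whether the TGF cells received a control siRNA, and give only heart and fibroblast as the source. There was 1 library per antibody and condition among the 10 libraries of the series, with no replicate, so no difference between conditions was tested. Intervals are exact binomial 95% intervals that cover counting error only. Regions are not replicates of a condition. The loss of HK1 was not checked, since no RNA or protein values were used.

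c-JUN is a subunit of AP-1, a family of paired transcription factors built from JUN, FOS, ATF and MAF proteins. JUN-FOS pairs recognise the palindrome TGACTCA or TGAGTCA, usually at enhancers, and are known for rapid responses to stress, growth factors and TGF-β. In fibroblasts AP-1 acts together with SMAD3, which carries the TGF-β signal, and with NFAT proteins, which carry calcium signals. HK1 performs the entry step of glycolysis, the pathway that yields lactate, and lactylation of histone H3 at lysine 9 (H3K9lc) draws on lactate.

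The siHK1-only regions held AP-1 sites less often in their middle than shared regions did, and in the well-read ones the sites lay more often in the outer parts than in the middle. The sequences below show where the AP-1 site sat in 7 of them, with the site in capitals. They were read from the forward strand of GRCm38. The first 4 are among the 10 siHK1-only regions with the most siHK1 reads, and those at Sntb2 and Slc10a2 are among the 10 with the highest log2 ratio. Loxl2, with 48 TGF and 64 siHK1 reads and a central site, was picked for display after its values were seen.
Mir22hg, chr11:75460626-75460692: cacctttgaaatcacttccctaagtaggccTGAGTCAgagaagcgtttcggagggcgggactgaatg
Foxs1, chr2:152927612-152927678: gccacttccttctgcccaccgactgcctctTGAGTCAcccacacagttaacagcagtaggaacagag
Tshz3, chr7:36914349-36914415: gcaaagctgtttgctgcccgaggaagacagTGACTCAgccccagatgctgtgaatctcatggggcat
Myof, chr19:38023729-38023795: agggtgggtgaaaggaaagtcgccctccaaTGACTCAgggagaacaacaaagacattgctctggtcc
Sntb2, chr8:106937650-106937716: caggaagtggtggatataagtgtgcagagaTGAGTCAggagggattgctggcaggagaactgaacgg
Slc10a2, chr8:5428480-5428546: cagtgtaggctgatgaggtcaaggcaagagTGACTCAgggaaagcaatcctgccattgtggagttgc
Loxl2, chr14:69635700-69635766: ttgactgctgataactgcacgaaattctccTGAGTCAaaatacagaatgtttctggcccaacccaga
Counted from the middle of its region, with negative values to the left, the nearest site lay at -357 bp in the Mir22hg region, -356 bp in the Foxs1 region, -272 bp in the Tshz3 region and 271 bp in the Myof region. In the other 3 it lay at 33 bp (Sntb2), -75 bp (Slc10a2) and -60 bp (Loxl2) from the middle.

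Reads in the listed JUN regions totalled 4215447 in TGF and 2271336 in siHK1, so siHK1 held 35.0% of them. A peak was called in both libraries at 36285 regions, in TGF alone at 27790 and in siHK1 alone at 8832. The siHK1-only regions of at least 15 reads held 3.11% of all siHK1 reads and 2.07% of all TGF reads. The labelled cell type was looked at through JUN at promoters of marker genes, which is no measure of expression. Promoters within 1 kb of the start were called in either library at 9 of 15 fibroblast markers, 8 of 12 endothelial, 4 of 12 macrophage and leukocyte, 3 of 12 cardiomyocyte and 2 of 8 mural markers. The median promoter count in siHK1 was 17 reads among fibroblast and 9 among endothelial markers, with genes lacking a listed promoter region set to 0. In the other lists most genes lacked one, so no median is given. The highest was 328 reads among fibroblast, 26 among endothelial, 55 among macrophage and leukocyte, 38 among cardiomyocyte and 3 among mural markers. The defining fibroblast genes Col1a1, Dcn and Thy1, the cardiomyocyte gene Tnnt2 and the leukocyte gene Ptprc had no promoter region within 1 kb in the list.

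None of the siHK1-only regions was empty in TGF. The TGF library held a median of 23 reads per region (quartiles 16 and 36, range 2 to 558), and siHK1 a median of 20 (quartiles 17 and 28, range 15 to 296). At 1516 of the regions (59.5%) the raw TGF count equalled or exceeded the siHK1 count, against 97.1% of shared regions. Among the 213 empty TGF counts of the JUN list, all belonged to siHK1-only regions below the read minimum.

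The siHK1-only state was most frequent where siHK1 reads were few. At 15 to 19 siHK1 reads 21.7% of the called regions lacked the TGF call, at 30 to 39 reads 4.97%, and at 100 reads or more 1.31%. At exactly 15 siHK1 reads, the TGF library held a median of 15 reads in 288 siHK1-only regions and 28 in 749 shared regions. At exactly 50 siHK1 reads the medians were 68.5 in 10 siHK1-only regions and 85 in 345 shared regions. The central 90% of TGF counts overlapped between the sets at each of these read numbers (7 to 28.65 against 16 to 48 at 15 reads). Just outside the minimum, 298 siHK1-only regions had 14 siHK1 reads and a median of 13 TGF reads. In all, 6284 siHK1-only regions lay below the minimum, with a median of 7 TGF reads.

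**Figure D1:**
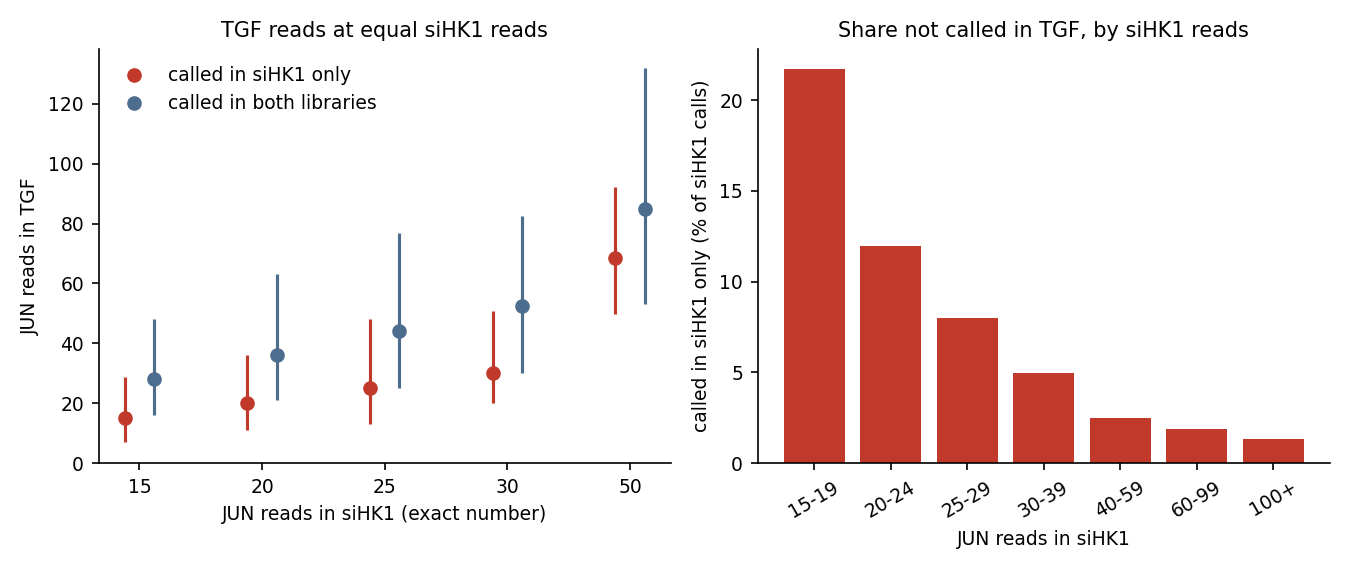
Left: JUN reads in TGF (raw count) at regions with exactly 15, 20, 25, 30 or 50 siHK1 reads, with points for medians and lines from the 5th to the 95th percentile, for regions called in siHK1 only (red) and in both libraries (blue). Right: the share of siHK1 calls that lacked a TGF call, by siHK1 reads, which fell from 21.7% at 15 to 19 reads to 1.31% at 100 or more.

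The log2 ratio of siHK1 over TGF, from the normalized values, had a median of 0.67 in siHK1-only regions (interval 0.65 to 0.69, quartiles 0.32 and 1.02, range -0.91 to 3.36). The median was 0.04 in shared regions and -0.13 over all JUN regions. Of the siHK1-only regions, 688 (27.0%) were at least 2-fold higher in siHK1, beside 5.66% of all JUN regions. This contrast is the one the selection used, so nothing is read from that excess. At 236 regions (9.26%) the ratio was below 0, beside 58.6% of all JUN regions. These 236 were lower in siHK1 although called there alone. After scaling to the same total over listed regions the median became 0.80, with 2379 regions (93.4%) above 0, beside 46.8% of all JUN regions. Without scaling the median of siHK1-only regions was -0.09 and that of all JUN regions -0.94. Region by region, the interval of the siHK1 share of reads lay above 35.0% at 1047 regions (41.1%), spanned it at 1493 (58.6%) and lay below it at 8. The same count over all JUN regions is not given. The regions were chosen on siHK1 reads and a missing TGF call, so nothing is read from these counts.

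The 10 siHK1-only regions with the most siHK1 reads were broad, between 1155 and 2081 bp, and 9 of them were read more often in TGF. The one with the most siHK1 reads lay at the promoter of Mir22hg, the host transcript of the microRNA miR-22 (chr11:75460193-75461839), with 478 reads in TGF and 296 in siHK1. Its log2 ratio was 0.24. A distal region 4256 bp from the start of Foxs1, a forkhead transcription factor gene, had 558 TGF and 292 siHK1 reads and a log2 ratio of 0.00. The promoter of the non-coding gene Gm13986 had 462 TGF and 291 siHK1 reads. It lay 62 bp from the start of Thbs1, which encodes thrombospondin-1, a matrix protein that activates latent TGF-β. An intron of Myof, which encodes the membrane repair protein myoferlin, held 317 and 214 reads.

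At Tshz3, a zinc finger transcription factor gene, a distal region had 477 TGF and 254 siHK1 reads. An exon assigned to Cluap1, a ciliary gene, had 350 and 185. The 1 region of the 10 with more siHK1 than TGF reads was assigned to Pisd-ps1 (chr11:3100365-3101519), with 161 in TGF and 209 in siHK1. It had no AP-1 site. It was also the 1 region of the 10 with high counts for every antibody, with 1429 and 598 SMAD3 reads, 1362 and 479 NFATC2 reads, and 4767 and 2575 H3K9lc reads in TGF and siHK1. In the other 9 the region held at least 1 AP-1 site, and none of the 10 held it in the central 200 bp.

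The 10 siHK1-only regions with the highest log2 ratio were of the opposite kind. They were 205 to 666 bp wide and held 2 to 6 reads in TGF and 15 to 24 in siHK1. A region assigned to Sptlc3, which encodes a subunit of the enzyme that starts sphingolipid synthesis, lay 172974 bp upstream of its start, in an intron of another transcript. It held 2 reads in TGF and 16 in siHK1 (chr2:139320665-139320939, log2 ratio 3.36). siHK1 held 88.9% of its reads (65.3 to 98.6). A distal region assigned to Adgrl3, an adhesion receptor gene, held 3 and 15 reads, with a log2 ratio of 2.80. A region near the start of Sntb2, which encodes a syntrophin of the dystrophin complex, held 6 and 24 reads (chr8:106937547-106937753, log2 ratio 2.60). Of these 10, those at Sntb2 and Slc10a2 held an AP-1 site in the central 200 bp, and the other 8 held none anywhere. They were ranked on the ratio itself, so their height is not a result.

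**Figure D2:**
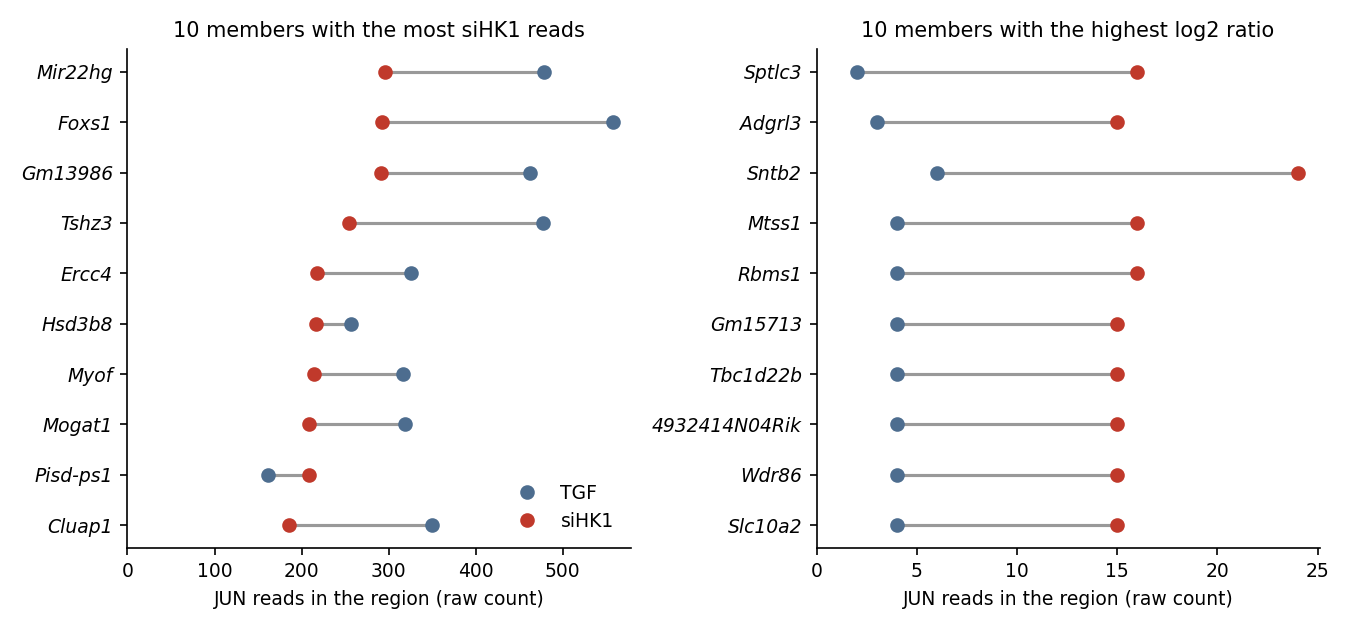
Raw JUN reads per region in TGF (blue) and siHK1 (red) for the 10 siHK1-only regions with the most siHK1 reads (left) and with the highest log2 ratio (right), named by the gene the annotation assigns. On the left TGF holds more reads in every region but Pisd-ps1. On the right TGF holds 2 to 6 reads and siHK1 15 to 24.

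An AP-1 site, TGACTCA or TGAGTCA on either strand, lay in the central 200 bp of 439 siHK1-only regions (17.2%, 15.8 to 18.8). The share was 31.2% in shared regions (30.7 to 31.7), 24.1% in all JUN regions and 23.0% in regions called in TGF alone with at least 15 siHK1 reads. Windows of the same length 2 kb to the left and right of siHK1-only regions held the site in 4.40% and 3.57%. Among regions with 15 to 24 siHK1 reads the share was 18.7% in siHK1-only (16.8 to 20.6) and 26.6% in shared regions (25.6 to 27.6). In the central 100 bp it was 7.65% against 17.1%, in the central 400 bp 31.1% against 47.4%, and over the whole region 42.1% against 57.4%. Over all JUN regions the whole-region share was 42.6%, close to that of the siHK1-only regions. The siHK1-only regions were narrower, with a median width of 501 bp against 635 bp.

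The AP-1 site was least frequent in the middle of the siHK1-only regions with the most reads. At 15 to 19 siHK1 reads 19.8% of siHK1-only regions held a central site, and at 100 or more reads 3 of 50 did (1.25 to 16.5%). In shared regions the share was 25.8% at 15 to 19 reads and 36.7% at 100 or more. Over the whole region the shares at 100 or more reads were alike, but at unlike widths. At 100 or more siHK1 reads 80.0% of siHK1-only (66.3 to 89.97) and 79.4% of shared regions held a site somewhere, at median widths of 1565 and 945 bp.

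**Figure D3:**
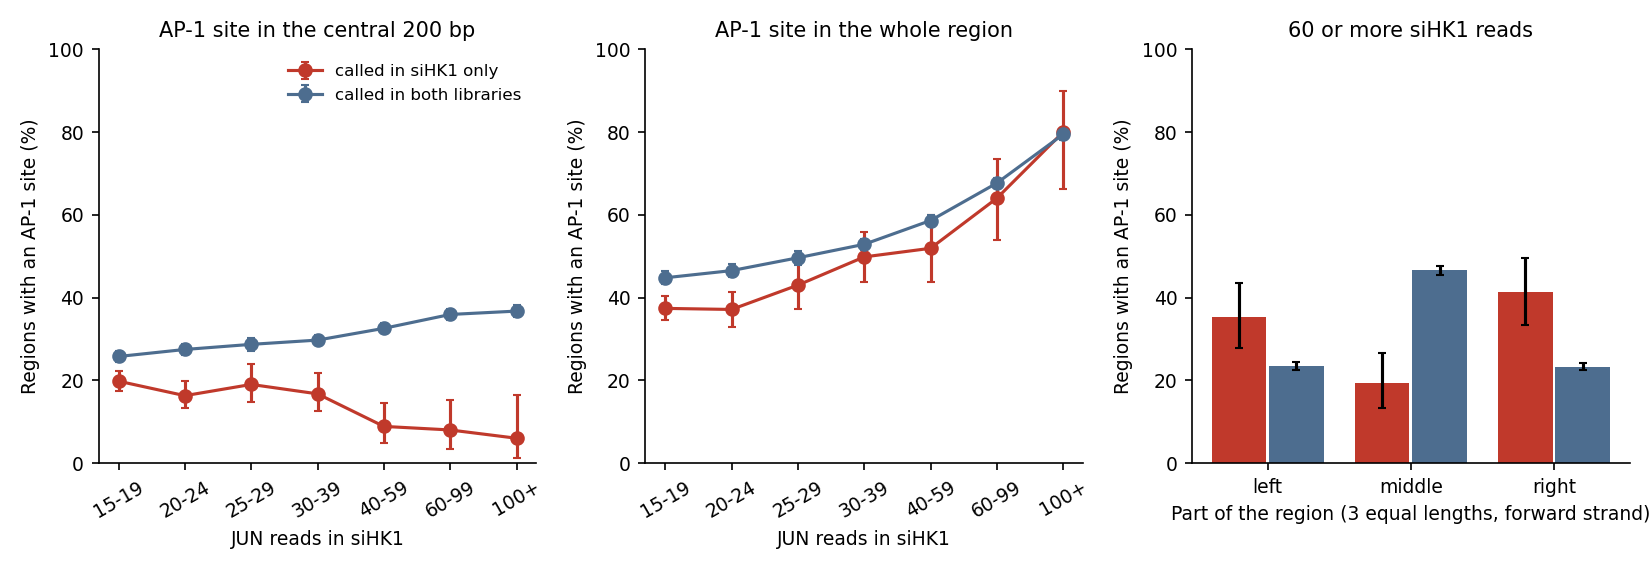
Share of regions (%) with an AP-1 site in the central 200 bp (left) and in the whole region (middle) by JUN reads in siHK1, and in each of 3 equal parts of regions with 60 or more siHK1 reads (right), for regions called in siHK1 only (red) and in both libraries (blue). Bars are exact binomial 95% intervals. Among regions of 60 or more reads the middle part held a site in 19.3% of siHK1-only and 46.6% of shared regions.

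Each region was then divided into 3 parts of equal length. Among the 150 siHK1-only regions with 60 or more siHK1 reads, the left part held an AP-1 site in 35.3% (27.7 to 43.5), the middle part in 19.3% (13.3 to 26.6) and the right part in 41.3% (33.4 to 49.7). The 8996 shared regions with as many reads showed the opposite order, with 23.5%, 46.6% and 23.3%. Median widths were 1294.5 bp in these siHK1-only and 834 bp in these shared regions, so the parts compared were of unlike length. Over all siHK1-only regions the parts held 17.1%, 13.2% and 17.1%, and over all shared regions 17.8%, 33.1% and 17.4%. Among regions with 15 to 24 siHK1 reads the values were 14.4%, 11.7% and 14.5% against 14.5%, 21.5% and 14.7%. The outer parts therefore held the site about as often in both sets at these read numbers, and the difference lay in the middle part.

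Width was examined in the same way. Regions under 300 bp, which fit almost wholly into the central window, held a central site in 34.2% of 418 siHK1-only (29.7 to 38.98) and 39.7% of 799 shared regions (36.3 to 43.2), whose intervals overlap. From 500 to below 800 bp the shares were 13.6% of 771 siHK1-only (11.3 to 16.2) and 35.4% of 14609 shared regions (34.6 to 36.2). From 800 to below 1200 bp they were 5.82% (3.64 to 8.75) and 23.9%. At 1200 bp or more they were 6.80% of 147 (3.31 to 12.2) and 11.9% of 1610 (10.4 to 13.6), whose intervals overlap. Over the whole region the gap remained at like widths, with 37.6% (34.3 to 40.95) against 52.4% from 300 to below 500 bp, 41.9% (38.4 to 45.5) against 57.9% from 500 to below 800 bp, and 46.3% (41.03 to 51.6) against 61.2% from 800 to below 1200 bp. The intervals overlapped under 300 bp (41.1% and 44.9%) and at 1200 bp or more (61.9% and 66.3%). The median log2 ratio of siHK1-only regions was 0.82 under 300 bp and 0.19 at 1200 bp or more.

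**Figure D4:**
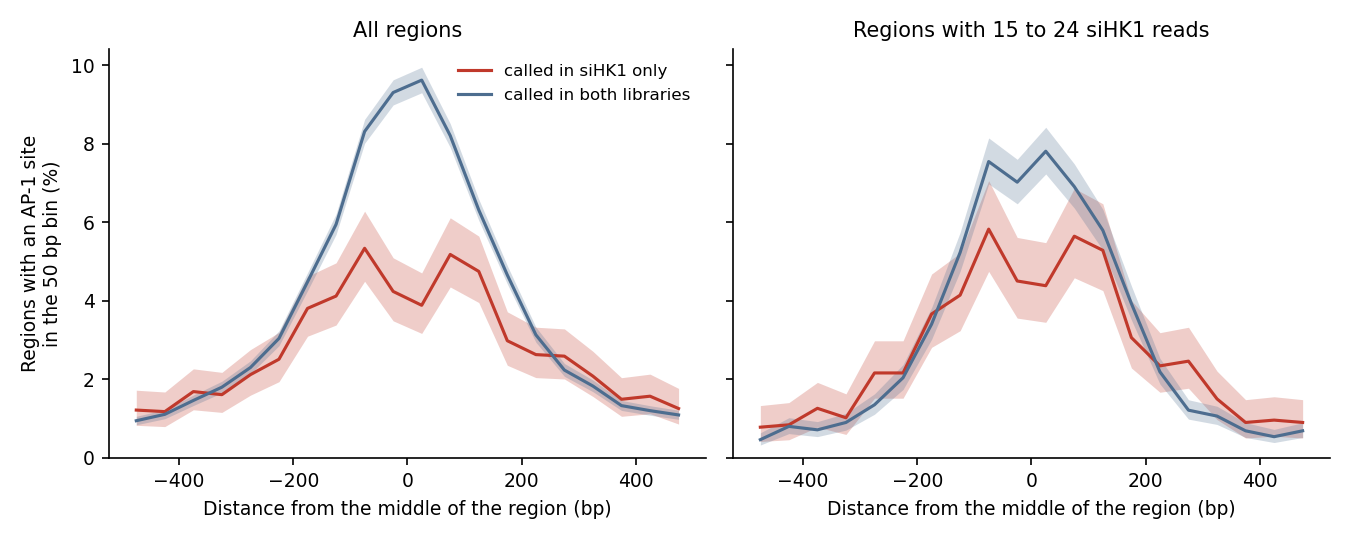
Share of regions (%) with an AP-1 site in each 50 bp bin by distance from the middle (bp), for all regions (left) and those with 15 to 24 siHK1 reads (right). Shading is the exact binomial 95% interval. Regions called in both libraries (blue) peak at the middle, and regions called in siHK1 only (red) are lower there with no single central peak.

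The siHK1-only regions with a central site had a median log2 ratio of 0.74 (0.67 to 0.76). Those with a site only elsewhere (634 regions) had 0.49 (0.44 to 0.55), and those with no site (1475 regions, 57.9%) had 0.74 (0.68 to 0.75). In that order, the groups had median widths of 378, 643 and 483 bp and medians of 19, 25 and 20 siHK1 reads. Regions with no site were promoters in 25.2% of cases, against 7.52% of those with a central site. By ratio, a central site lay in 12.7% of the 236 regions below 0 (8.74 to 17.6) and in 19.9% of the 186 regions at 1.5 or more (14.4 to 26.4), whose intervals overlap. Over the whole region the order was the opposite, with 51.3% (44.7 to 57.8) and 34.4% (27.6 to 41.7), at median widths of 852.5 and 362 bp.

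Letters of other factors were searched in the same central window on both strands. The SMAD letters CAGACA, the same letters ending in C, or GTCTAGAC were found in 25.3% of siHK1-only (23.6 to 27.01) and 30.6% of shared regions (30.05 to 31.06). The SP/KLF letters GGGCGG, of GC-rich promoters, were found in 8.36% (7.31 to 9.50) and 11.5%. The cyclic AMP response element TGACGTCA, bound by JUN-ATF pairs, lay in 9 siHK1-only regions (0.35%) and in 0.82% of shared regions. The NFAT letters TGGAAA were found in 18.2% and 18.3%, the NFY letters CCAAT in 22.4% and 22.8%, and the TEAD letters GGAATG in 14.2% and 15.8%. Median GC content of the window was 47.0% in siHK1-only and 49.0% in shared regions, and 7.89% against 5.31% of the windows were mostly repeat-masked.

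By the authors' annotation, promoters within 1 kb of a start held 479 of the siHK1-only regions (18.8%, 17.3 to 20.4), against 19.05% of shared regions. Promoters between 1 and 3 kb held 8.20% (7.17 to 9.34) against 6.84% (6.57 to 7.12). Introns held 885 (34.7% against 34.5%), distal intergenic sequence 817 (32.1% against 33.3%) and exons 121 (4.75% against 4.54%). With 15 to 24 siHK1 reads the promoter share was 16.7% (14.9 to 18.6) in siHK1-only and 20% (19.1 to 20.9) in shared regions. At a minimum of 30 siHK1 reads the order turned, with 25.7% in siHK1-only and 18.5% in shared regions. Promoter regions had a lower log2 ratio than the rest, with a median of 0.56 against 0.67 in introns and 0.69 in distal sequence. They were also wider, at a median of 636 bp against 466 bp in introns, with 22 against 20 siHK1 reads. The selection used this contrast, so nothing is read from the lower ratio. An AP-1 site lay in the middle of 6.89% of siHK1-only promoters (4.79 to 9.54) and 13.5% of shared ones (12.6 to 14.4), and in 21.0% of siHK1-only introns (18.4 to 23.9) and 34.6% of shared ones.

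A JUN region called in TGF lay within 1 kb of 381 siHK1-only regions (14.95%, 13.6 to 16.4), touching in 1 case. The same held for 12.9% of shared regions (12.5 to 13.3) and 13.97% of all JUN regions, the second within the interval of the siHK1-only regions. Across the autosomes, the share of siHK1 calls that lacked a TGF call ran from 6.28% on chromosome 7 to 8.49% on chromosome 16, beside the 7.39% over all. The intervals of both chromosomes include that value.

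SMAD3 regions overlapped 310 siHK1-only regions (12.2%, 10.9 to 13.5), against 25.9% of shared and 18.1% of all JUN regions. With 15 to 24 siHK1 JUN reads the shares were 8.59% (7.29 to 10.04) and 14.5% (13.7 to 15.3). The 327 overlapping SMAD3 regions were called in siHK1 alone in 202 cases (61.8%, 56.3 to 67.1), beside 47.7% of all SMAD3 regions and 66.3% of those at shared JUN regions. At least 2-fold higher in siHK1 were 135 of them (41.3%), beside 27.5% of the SMAD3 table and 44.5% at shared JUN regions. Their median log2 ratio was 0.65 (0.44 to 0.85), that at shared regions 0.85 (0.85 to 0.87) and that of the table -0.16. The median depended on the read minimum: it was 0.26 at a minimum of 10 JUN reads. Over siHK1-only regions of any JUN reads it was 0.14, with 50.1% called in siHK1 alone. The median SMAD3 count was 5 in TGF and 6 in siHK1, which is thin.

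NFATC2 at the siHK1-only regions had a median below 0. Its regions overlapped 318 siHK1-only regions (12.5%, 11.2 to 13.8), against 21.8% of shared and 15.4% of all JUN regions. With 15 to 24 siHK1 JUN reads the shares were 8.95% (7.62 to 10.4) and 12.6% (11.8 to 13.3). Of the 331 overlapping NFATC2 regions 126 were called in siHK1 alone (38.1%, 32.8 to 43.5), beside 54.0% of the NFATC2 table and 37.2% at shared JUN regions. Those at least 2-fold higher were 75 (22.7%), beside 37.2% of the table and 20.7% at shared JUN regions. Those at least 2-fold lower were 101 (30.5%, 25.6 to 35.8), against 19.5% at shared JUN regions (18.6 to 20.4) and 28.6% of the table. The median log2 ratio was -0.29 (-0.43 to -0.06) at siHK1-only, -0.02 (-0.06 to -0.01) at shared regions and 0.36 over the table. At siHK1-only regions it was -0.19 at a minimum of 10 JUN reads, -0.08 at a minimum of 30 (143 NFATC2 regions) and -0.19 at equal totals. The median count was 5 in TGF and 3 in siHK1.

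H3K9lc regions overlapped 87 siHK1-only regions (3.41%, 2.74 to 4.19), against 7.38% of shared and 6.07% of all JUN regions. The 88 overlapping H3K9lc regions were called in siHK1 alone in 13 cases (14.8%, 8.11 to 23.9), beside 24.2% of the H3K9lc table and 15.6% at shared JUN regions. They were at least 2-fold higher in siHK1 in 8 cases (9.09%, 4.01 to 17.1), beside 10.6% of the table and 5.87% at shared JUN regions. Their median log2 ratio was -0.11 (-0.38 to 0.03), against -0.39 (-0.44 to -0.33) at shared regions and -0.19 over the table. At siHK1-only regions it was -0.03 with 15 to 24 JUN reads, -0.06 at equal totals and -0.25 at a minimum of 30 (26 H3K9lc regions). No antibody listed a region at most of the siHK1-only set: SMAD3, NFATC2 or H3K9lc overlapped 554 of them (21.7%) and 38.7% of shared regions, and SMAD3 with NFATC2 together 108 (4.24%) and 11.6%.

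**Figure D5:**
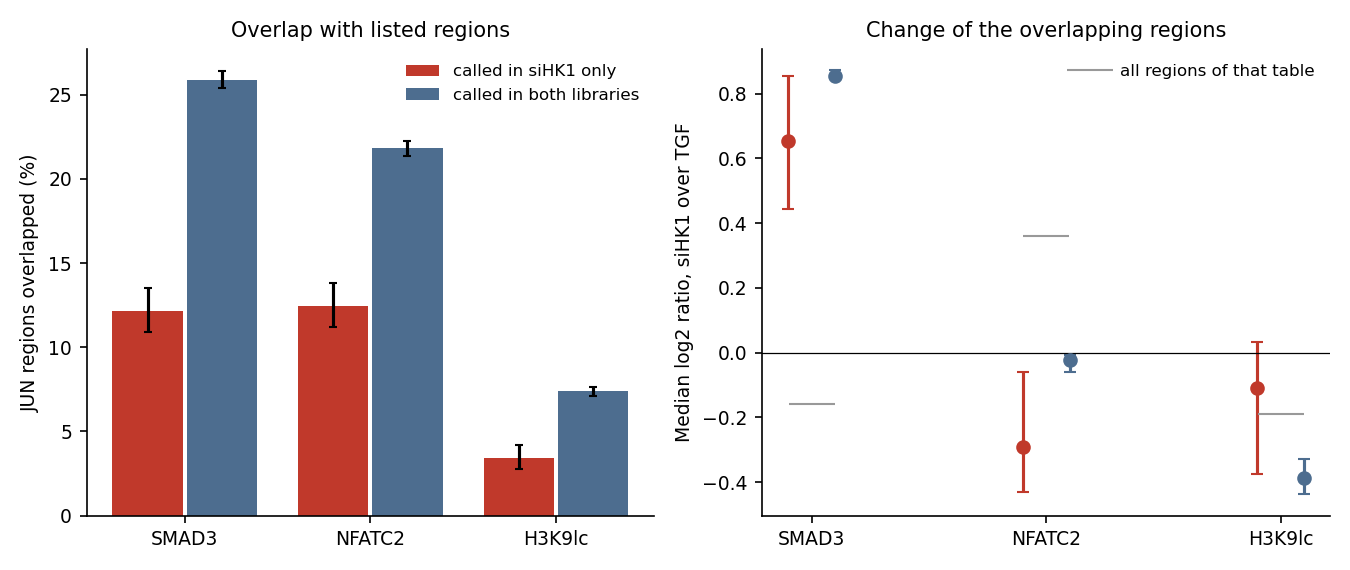
Left: share of JUN regions (%) overlapped by at least 1 bp by a listed SMAD3, NFATC2 or H3K9lc region, for JUN regions called in siHK1 only (red) and in both libraries (blue), with exact binomial 95% intervals. Right: median log2 ratio of siHK1 over TGF of those overlapping regions with its 95% interval, and the median of each antibody's whole table (grey line). At siHK1-only regions the median is 0.65 for SMAD3, -0.29 for NFATC2 and -0.11 for H3K9lc.

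The annotation assigned the siHK1-only regions to 2212 genes, of which 1941 had 1 region, 226 had 2 and 45 had 3 or more. Lpp, which encodes a focal adhesion protein of smooth muscle and fibroblasts, Marcks, which encodes an actin-binding kinase substrate, and Pappa, which encodes a protease that frees insulin-like growth factor, had 5 each. These 3 genes also had 17, 14 and 17 shared regions. The 5 Lpp regions all lay in introns and held 19 to 37 reads in TGF and 15 to 39 in siHK1. Their log2 ratios ran from -0.40 to 0.98. The 5 Marcks regions lay 93199 to 464109 bp from its start, and their ratios ran from 0.57 to 1.43.

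Gene lists are given beside the 7.39% of siHK1 calls that lacked the TGF call over all genes, and no list is singled out by them. Among AP-1 genes and their partners, 7 of 60 regions (11.7%, 4.82 to 22.6) were siHK1-only, among them regions of Fosl1, Fosl2, Jdp2, Maf, Maff and Mafg, with a median log2 ratio of 0.48. The region over the start of Fosl1, which encodes the JUN partner FRA1, held 64 reads in TGF and 49 in siHK1 and carried a central AP-1 site (chr19:5447557-5448141). A distal region of Jdp2, a JUN dimerization protein that represses AP-1, held 233 and 139 reads.

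In the TGF-β pathway 7 of 132 regions were siHK1-only (5.30%, 2.16 to 10.6), at 5 genes. An intron of Pmepa1, which encodes an inhibitor of SMAD signalling, held 91 reads in TGF and 84 in siHK1, with a log2 ratio of 0.72. The promoter of the co-receptor gene Tgfbr3 held 26 and 35 reads (1.19). A distal region of Id3, which encodes an inhibitor of differentiation factors, held 92 and 36 reads, with a ratio of -0.51. Of these 3, Tgfbr3 alone had more raw reads in siHK1.

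Myofibroblast genes had 5 siHK1-only regions of 94 (5.32%, 1.75 to 11.98), at Axin2, Col1a2, Col3a1, Loxl2 and Tnc. Thbs1 is also in this list, but the region 62 bp from its start was assigned to Gm13986 and is not counted here. A region 1289 bp from the start of Col1a2, a type I collagen chain, held 38 reads in TGF and 51 in siHK1 (chr6:4506991-4507641, log2 ratio 1.21). An intron of Loxl2, which encodes a collagen cross-linking oxidase, held 48 and 64 reads (1.21) and the central AP-1 site printed above. An exon of Col3a1, a type III collagen chain, held 52 and 43 reads (0.53). Among fibroblast identity genes 5 of 65 regions were siHK1-only (7.69%, 2.54 to 17.05), one of them at the promoter of the receptor gene Pdgfra with 36 and 33 reads.

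Cardiac fibroblast transcription factor genes had 13 of 134 (9.70%, 5.27 to 16.02), at 8 genes. An intron of Mef2c, a muscle and mesenchyme transcription factor gene, held 114 reads in TGF and 91 in siHK1, with a log2 ratio of 0.52. The promoter of Gata6, a GATA transcription factor gene, held 178 and 70 reads, with a ratio of -0.47. NFAT and calcineurin genes had 7 of 58 (12.1%, 4.99 to 23.3). A distal region assigned to Nfatc2, the gene of one of the profiled factors, held 26 and 30 reads (0.97). Matrix protease and inhibitor genes had 6 of 83 (7.23%, 2.70 to 15.1), with 52 and 52 reads in a region that the annotation places in a 3' UTR and assigns to Mmp14, a membrane collagenase gene. Hippo genes had 2 of 55 (3.64%, 0.44 to 12.5), at Amotl2 and Lats2, both coding for proteins that hold YAP in check.

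Glycolysis and lactate genes had 2 of 53 (3.77%, 0.46 to 12.98), both at promoters. The promoter of Pfkfb3, whose product raises glycolytic flux, held 101 reads in TGF and 71 in siHK1, with a log2 ratio of 0.34. That of Pfkp, a phosphofructokinase gene, held 9 and 16 (1.51). Neither Hk1 nor Hk2 had a siHK1-only region. Histone acylation enzyme genes had 4 of 21 (19.05%, 5.45 to 41.9). Among them, an exon region assigned to the acetyltransferase gene Ep300 held 12 and 25 reads (1.75), and the promoter of its relative Crebbp held 17 and 24 (1.23).

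Interferon and innate immune genes had 3 of 19 (15.8%, 3.38 to 39.6), all at promoters. The promoter of Irf1, an interferon-induced transcription factor gene, held 12 and 16 reads (1.12), and that of the antiviral gene Rsad2 held 33 and 23 (0.27). Cytokine and chemokine genes had 4 of 70 (5.71%, 1.58 to 13.99), at Csf1, Cxcl12, Cxcl2 and Tnf. A distal region of Csf1, the macrophage growth factor gene, held 6 and 19 reads, a log2 ratio of 2.27, and siHK1 held 76.0% of them (54.9 to 90.6). Cell cycle genes had 2 of 36 (5.56%), at Cdk6 and Myc, and ribosomal protein genes 1 of 10.

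Among markers of other cell types, endothelial genes had 43 regions called in siHK1 with at least 15 reads, beside 65 at fibroblast identity genes. The cardiomyocyte, mural, and macrophage and leukocyte lists had 11, 11 and 12. Of those, cardiomyocyte genes had 1 of 11 siHK1-only (9.09%), in an intron of the titin gene Ttn with 12 and 19 reads (1.37). Endothelial genes had 3 of 43 (6.98%), at Cdh5, Cldn5 and Kdr, with log2 ratios of -0.67, -0.01 and 1.37. Macrophage and leukocyte markers had 0 of 12 and mural markers 0 of 11, for which the intervals reach 26.5% and 28.5%. Each of these intervals, like those of the pathway lists, includes the 7.39% over all genes.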

How the data were processed

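CUT&Tag tables of 2 JUN, 2 SMAD3, 2 NFATC2 and 2 H3K9lc libraries were used. The study's methods name Bowtie2, MACS2 and GRCm39, whereas the submitters' processing notes list BWA 0.7.12 and mm10. The transcript coordinates in the JUN table were those of GENCODE vM21 on GRCm38 in 30096 of 30096 matched cases, so coordinates are on GRCm38. The authors deposited, per merged region, raw read counts, a 0 or 1 peak call (the other unit used) and normalized log2 values for each library. The deposited log2 values were found to be a line in log2(count + 0.5), with slope 0.96 for TGF and 1 for siHK1, which centres shared regions at a ratio near 0. A loss common to all regions therefore cannot be seen. Ratios, p-values and calls of change in the tables are the authors' own comparisons and were not used, nor was spike-in DNA. Tables were scaled separately.

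Computed here with Python 3.11.15, pandas 2.3.3 and SciPy 1.17.1: the ratio (normalized log2 in siHK1 minus TGF), exact binomial intervals, motif matches in GRCm38 sequence, overlaps of at least 1 bp, and nearest coding starts. The counting code was tested on simulated data. Named were the 10 regions with the most siHK1 reads and the 10 with the highest ratio, up to 3 per annotation class and gene list (18 lists), 5 at SMAD3 or NFATC2 regions called in siHK1 only, and the genes with the most regions. Some regions that this rule names are not reported here. The set, lists and motifs were chosen with earlier results of these data known. The splits of regions by width and into 3 parts were added after the data were seen. Alternatives were other read minimums, windows, distances, overlaps and scalings. PCR copies are not independent molecules, so intervals cover counting error only. Depth beyond the listed regions is unknown. The libraries titled TGF and NC, the second a control with no treatment by its label, have no antibody in their titles and were not used here.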

Additional observations from a re-analysis of the deposited data

Results flagged for a closer look

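At regions called for JUN in siHK1 only, the siHK1 over TGF median was 0.67 (log2) for JUN and had the opposite sign for NFATC2, at -0.291 over 331 overlapping regions, although it was only -0.08 at a minimum of 30 JUN reads. For H3K9lc it was also opposite, at -0.111 over 88 overlapping regions, with an interval of -0.38 to 0.03 that includes 0, and ran from -0.25 at a minimum of 30 JUN reads to -0.03 with 15 to 24. The regions were chosen on the JUN calls, and the JUN sign also depends on the scaling, with a median of -0.09 without it. The tables were scaled separately, and the difference between antibodies was not tested.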

How the results depend on the processing

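Of 81 alternative values, 44 stayed within the interval of the main value (within 1.5 times it for counts of regions), 36 moved further and 1 changed sign, and the cause was not tested. The sign changed without any scaling, where the median JUN log2 ratio was -0.0902. With equal totals it was 0.80 at pseudocounts 0.5, 1 and 0.1 alike, and 0.72 among regions with more siHK1 than TGF reads at equal totals. A minimum of 10 siHK1 reads gave 4734 regions, a median of 0.74, overlap shares of 10.9% for SMAD3 and 10.7% for NFATC2, a SMAD3 median of 0.26, and 13.4% beside a TGF call. A minimum of 20 gave 1411 regions, a median of 0.57, AP-1 in 15.2%, SMAD3 in 15.45% and NFATC2 in 15.7%. A minimum of 30 gave 583 regions, a median of 0.44, AP-1 in 12.2% (shared regions 33.4%), promoters in 25.7% (18.5%), SMAD3 in 22.6%, NFATC2 in 22.8%, H3K9lc in 4.29% and 17.3% beside a TGF call. With 15 to 24 reads promoters were 16.7%, SMAD3 8.59% and NFATC2 8.95%. Away from TGF calls promoters were 16.9%. AP-1 shares were 7.65%, 31.1% and 42.1% in the central 100 bp, the central 400 bp and the whole region. Promoters within 3 kb were 27.0%, and a TGF call lay within 500 bp of 6.59% and within 5 kb of 45.8%. Overlap over 50% of the shorter region gave 10.3% for SMAD3 and 10.9% for NFATC2, and equal totals a SMAD3 median of 0.86. AP-1 stayed below its shared-region share at each minimum and window run. No paired analysis was possible because only 1 library per condition exists for an antibody in the labels. With medians of 3 to 6 reads, SMAD3 and NFATC2 regions at the siHK1-only set are thin, and differences at single regions were not tested.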
